A study of Gallus gallus with 106 samples.

Results

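Endothelins are small peptide hormones that act on the cells that release them and on their neighbours, and the transcripts of endothelin-1 (EDN1), endothelin-2 (EDN2) and the type B endothelin receptor (EDNRB) were followed here in muscle stem cells of the chicken. The members are the 3 genes of the deposited count table that carry these names, out of 569 genes on the panel, and each is represented by 1 transcript. They were chosen by values of an earlier analysis of the same libraries. There EDN2 stood out in the comparison of hypoxia with normoxia at 24 and 48 h, EDNRB at 48 h, EDN1 in the change from 0 to 48 h at either oxygen level and EDNRB in that change in hypoxia. In those 4 comparisons all values of the members are therefore a description, given without a p-value.

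The cells were wild-type (WT) primary satellite cells from the Pectoralis major, the breast muscle, of broilers. They were grown in Ham's F10 with serum, chicken embryo extract and basic fibroblast growth factor. Myogenic differentiation was then induced with a DMEM/F12 medium of horse serum and embryo extract, and the cells stayed at 20% O2 (normoxia) or went into a chamber at 1% O2 (hypoxia). Harvests were at 0 h, just before induction, with 5 biological libraries, and at 12, 24, 36 and 48 h, with 6 libraries at each oxygen level, which makes 53 libraries in 9 groups. All groups after 0 h share the change of medium, and the single 0 h group is the start of both courses. The labels do not tie libraries to separate birds, so the spread between them may be technical.

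In mammals the endothelins are made as long precursors, which are trimmed by furin-like proteases and by the endothelin-converting enzyme. Endothelin-1 is released mostly by endothelial cells, where low oxygen is known to induce EDN1. The endothelins signal through the G protein-coupled receptors A and B. The B receptor binds all endothelins about equally and also removes endothelin-1 from the circulation. Birds carry a further B-type receptor, EDNRB2, known from pigment cells. No gene of the panel carries the name EDN3, EDNRA, EDNRB2 or ECE1 (the converting enzyme), so these are not analysed here.

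On build galGal6, as the deposited table gives it, EDN1 lies on the minus strand of chromosome 2 from 62675250 to 62679088, with 5 exons. EDN2 lies on the plus strand of chromosome 23 from 1063330 to 1068649, also with 5 exons. EDNRB lies on the plus strand of chromosome 1 from 155290926 to 155305744, with 7 exons.

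The assay was targeted RNA-seq, in which cDNA of a fixed gene panel is amplified by PCR and sequenced, and the deposited values are read counts. Both technical replicates of a library were summed, and library totals then ran from 171196 to 1448544 counts. Levels are normalised read counts (CPM, counts per library total after scaling by TMM factors), and a group is given by its mean ± SD over libraries. Amplicons differ in yield, so CPM of different genes are not set against each other. The muscle genes PAX7, MYOD1, MYOG and DES were counted in all 53 libraries, with at least 659 counts in each. Such counts cannot show what share of the cells was of the muscle lineage, and markers of other cell types are given below. The reads on the members were few. Single libraries held 5 to 296 counts of EDN1, 7 to 255 of EDN2 and 13 to 976 of EDNRB, and no single technical replicate was at 0. For a single technical replicate, without TMM factors, the SD of log2 CPM was 0.62 for EDN1, 0.60 for EDN2 and 0.44 for EDNRB. Between the summed libraries of a group, with TMM factors, it was 0.66, 0.57 and 0.38. A single replicate holds fewer reads than the summed library, so these SDs are not set against each other.

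**Figure D1:**
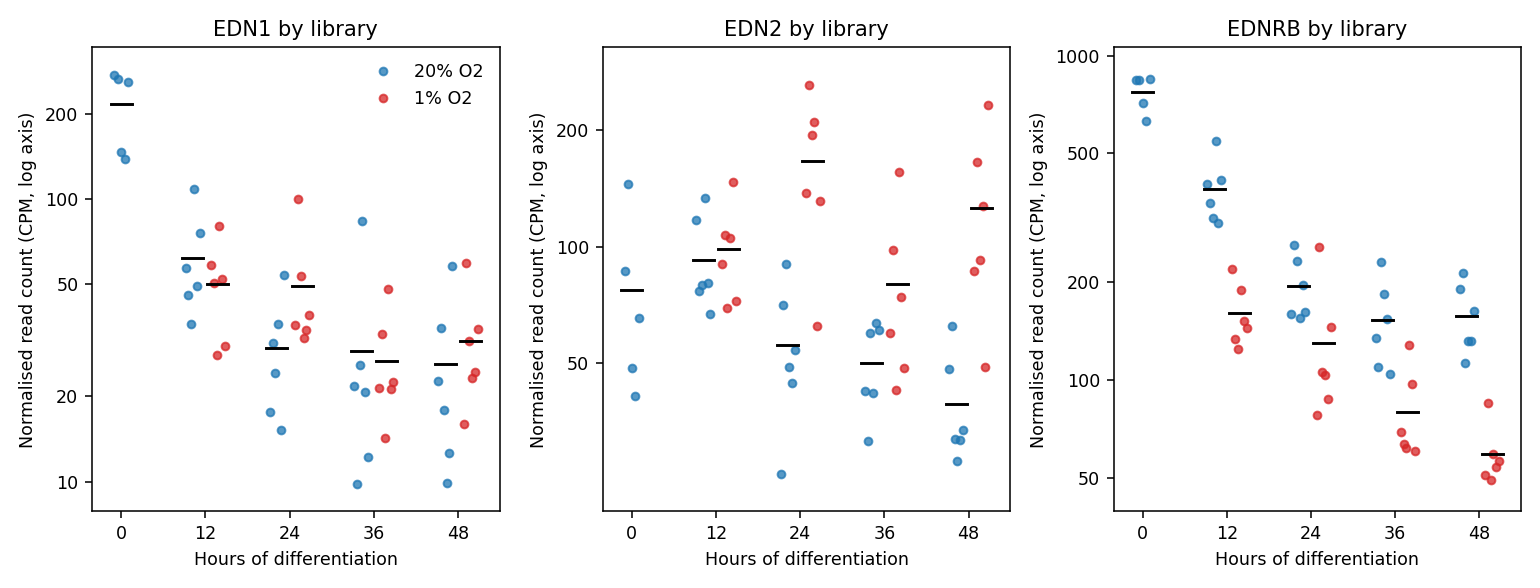
Normalised read count (CPM, log axis) of EDN1, EDN2 and EDNRB against hours of differentiation. Each point is 1 library, blue at 20% O2 and red at 1% O2, and the black line is the group mean. EDN1 and EDNRB are highest at 0 h, while EDN2 is highest in hypoxia at 24 and 48 h.

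EDN1, the ligand best known from vascular endothelium, was highest before differentiation and was low from 24 h on at either oxygen level. The 5 libraries at 0 h held 274, 264, 146, 138 and 258 CPM, a mean of 216 ± 67.8 (SD, n = 5). At 12 h normoxia ranged from 36.1 to 108 CPM with a median near 53, and hypoxia from 28.1 to 80.2 CPM with a median of 51.2. Every library of every later group lay below the lowest library at 0 h. The share of all genes without such overlap between groups was not counted, here or for the other members. At 24 h normoxia ranged from 15.2 to 54.0 CPM (median 27.5) and hypoxia from 32.1 to 100.2 (median 37.4). At 36 h normoxia ranged from 9.81 to 83.4 CPM (median 21.3) and hypoxia from 14.2 to 47.9 (median 22.0). At 48 h normoxia ranged from 9.87 to 57.6 CPM (median 20.3) and hypoxia from 16.0 to 59.4 (median 27.9). The oxygen levels overlapped at all 4 harvests, and in the order of the 9 group means all neighbours after 0 h differed by less than 1 SD.

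Between 0 and 48 h the EDN1 level in normoxia went from 216 ± 67.8 to 25.9 ± 17.9 CPM, a log2 change of -3.20 (SE 0.43), or 9.21-fold lower. In hypoxia it went to 31.5 ± 15.1 CPM, a log2 change of -2.83 (SE 0.42), or 7.13-fold lower. The drop came early. By 12 h the log2 change was -1.82 (SE 0.39) in normoxia and -2.14 (SE 0.40) in hypoxia, from 12 to 24 h it was -1.12 (SE 0.40) in normoxia and -0.03 (SE 0.39) in hypoxia, and no later step exceeded 0.90 in size. Both courses share the 0 h libraries and are not independent of each other. In bulk RNA a lower level can be fewer cells of a type or less RNA per cell, which cannot be told apart.

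EDN2, a close relative of EDN1 that binds both receptors, did not share this early drop. Its 0 h libraries held 86.7, 145, 48.5, 41.1 and 65.3 CPM, a mean of 77.3 ± 41.7. At 12 h normoxia ranged from 67.1 to 134 CPM with a median of 80.1, and hypoxia from 69.2 to 147 with a median of 97.9. These groups overlapped with each other and with 0 h. At 24 h normoxia ranged from 25.8 to 90.3 CPM with a median of 51.3, and hypoxia from 62.3 to 262 with a median of 166. Of the 6 hypoxia libraries 5 lay above every normoxia library, the exception being replicate 5 at 62.3 CPM. At 36 h normoxia ranged from 31.4 to 63.3 CPM with a median of 51.1, and hypoxia from 42.7 to 156 with a median of 66.9, and 3 of 6 hypoxia libraries lay above the normoxia range. At 48 h normoxia ranged from 28.0 to 62.2 CPM with a median of 32.7, and hypoxia from 48.9 to 233 with a median of 109.6, and again 5 of 6 hypoxia libraries lay above every normoxia library.

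EDN2 in normoxia thus had its 2 lowest group means at the last harvests, 49.9 ± 13.2 CPM at 36 h and 39.2 ± 13.3 at 48 h, and its 3 highest were those of hypoxia at 24, 48 and 12 h. Neighbours in this order overlapped throughout, each gap being smaller than the larger SD. From 0 to 48 h the log2 change was -0.97 (SE 0.36) in normoxia and 0.70 (SE 0.36) in hypoxia. The hypoxia course was not even, with log2 steps of 0.38, 0.75, -1.08 and 0.65 between successive harvests (SE 0.33 to 0.35).

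EDNRB, the receptor, was the member with most reads and the smallest spread, and its level was lower in hypoxia at each harvest. Its 0 h libraries held 841, 841, 715, 630.4 and 849 CPM, a mean of 775 ± 98.3. At 12 h normoxia ranged from 306 to 547 CPM with a median of 376, and hypoxia from 124 to 219.8 with a median of 148, with no overlap. At 24 h normoxia ranged from 155 to 260.4 CPM with a median of 179, and hypoxia from 78.2 to 258 with a median of 105. The groups overlapped there through hypoxia replicate 2, at 258 CPM, and the other 5 hypoxia libraries lay below all of normoxia. At 36 h normoxia ranged from 105 to 231 CPM with a median of 144, and hypoxia from 60.6 to 128 with a median of 66.2, with 5 of 6 hypoxia libraries below the normoxia range. At 48 h normoxia ranged from 113 to 214 CPM with a median of 147, and hypoxia from 49.2 to 84.9 with a median of 54.9, again with no overlap.

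The order of the EDNRB group means was 0 h, normoxia at 12 h and normoxia at 24 h, followed by hypoxia at 12 h and the later groups. The first 3 were separated by gaps of more than 2 SD (0 h to 12 h, 3.93 times the larger SD; 12 h to 24 h, 2.19 times), and all later neighbours overlapped. Over 48 h the log2 change was -2.31 (SE 0.25) in normoxia, 4.95-fold lower, and -3.73 (SE 0.26) in hypoxia, 13.3-fold lower. In hypoxia the first 12 h made up -2.27 (SE 0.25) of this. In normoxia the first steps were -0.997 (SE 0.24) from 0 to 12 h and -0.999 (SE 0.23) from 12 to 24 h, and the later means were 153 ± 48.4 CPM at 36 h and 157 ± 39.1 at 48 h.

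The effect of oxygen at each harvest was fitted over all 453 genes with enough counts (edgeR quasi-likelihood test, Benjamini-Hochberg adjusted p under 0.05 as the threshold). At 12 h 17.9% of the genes passed, and of the members EDNRB passed. EDNRB fell by 1.27 on the log2 scale (SE 0.23, adjusted p = 6.18e-05), from 389 ± 89.0 CPM in normoxia to 161 ± 36.6 in hypoxia, and was lower than the normoxia mean in 6 of 6 libraries. EDN1 had a log2 change of -0.31 (95% interval -1.08 to 0.45, adjusted p = 0.547) and EDN2 of 0.10 (-0.56 to 0.77, adjusted p = 0.824). The intervals of both ligands include changes of more than 1.5-fold, so no difference was detectable at this depth.

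At 36 h 16.3% of the genes passed, and again EDNRB was the member among them. Its log2 change was -0.95 (SE 0.24, adjusted p = 0.00264), from 153 ± 48.4 to 80.0 ± 27.2 CPM, with 6 of 6 hypoxia libraries under the normoxia mean. Without replicate 3 the adjusted p was 0.0602 with a log2 change of -0.72. EDN1 stood at a log2 difference of 0.02 (-0.80 to 0.84, adjusted p = 0.991), with 29.0 ± 27.4 CPM in normoxia and 26.8 ± 12.0 in hypoxia. EDN2 had a log2 difference of 0.63 (-0.06 to 1.32, adjusted p = 0.253).

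At 24 and 48 h, the comparisons by which members were chosen, 18.5% and 22.3% of all genes passed, and the members' values are listed without a test. At 24 h EDN2 was 2.99-fold higher in hypoxia (log2 1.58, SE 0.35, 55.6 ± 22.3 against 166 ± 70.3 CPM), EDN1 had a log2 difference of 0.78 (SE 0.41) and EDNRB of -0.61 (SE 0.24). EDN1 was above the normoxia mean in 6 of 6 hypoxia libraries, though 5 of them lay inside the normoxia range. The EDNRB difference was -0.81 without replicate 2, the number of the high hypoxia library. At 48 h EDN2 was 3.17-fold higher in hypoxia (log2 1.67, SE 0.35, 39.2 ± 13.3 against 125 ± 65.9 CPM) and EDNRB 2.68-fold lower (log2 -1.42, SE 0.24, 157 ± 39.1 against 59.0 ± 13.1 CPM). EDN1 had a log2 difference of 0.37 (SE 0.42).

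For the change from 0 to 48 h 40.6% of all genes passed in normoxia and 44.2% in hypoxia. All 3 members were among them in normoxia, and EDN1 and EDNRB in hypoxia. Nothing is read from these counts, since the members were picked from the same comparisons. Without replicate 1, 2 or 5 the EDN2 change in normoxia no longer passed (log2 -0.96, -0.80 and -0.93).

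**Figure D2:**
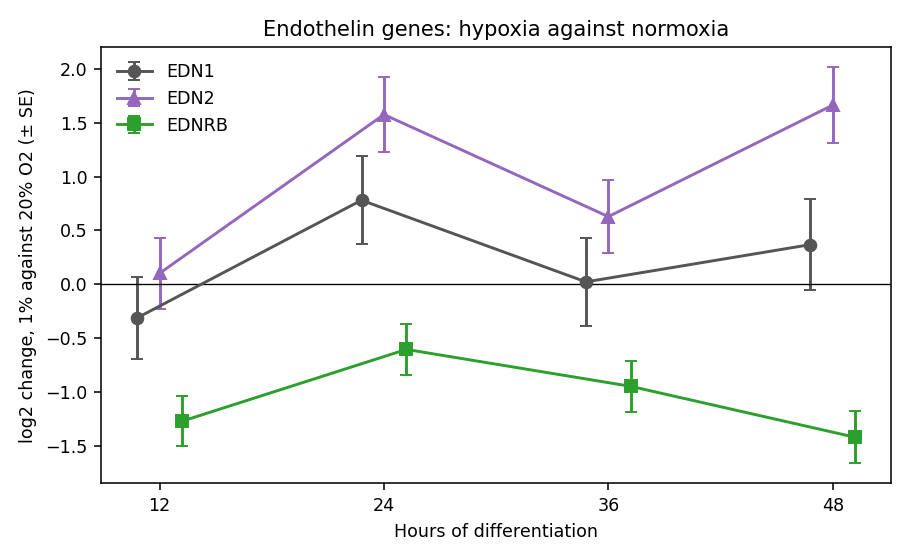
Log2 change between 1% and 20% O2 (y axis) at each harvest (x axis, hours of differentiation), with bars of ± 1 SE from the fit over all genes, 6 libraries against 6. EDNRB lies below 0 at all 4 harvests, from -0.61 to -1.42, EDN2 is highest at 24 and 48 h, and EDN1 stays within 2 SE of 0.

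Whether the oxygen effect depended on the harvest was tested as a difference between the 4 effects, which 10.6% of the genes passed. Of the members EDN2 passed (adjusted p = 0.0416), with an effect 1.56 larger on the log2 scale at 48 h than at 12 h. The 24 and 48 h effects in this test are those by which EDN2 was chosen, so it is no independent support. The call was lost in 13 of 19 alternative settings, with adjusted p from 0.0159 to 0.491. EDN1 (adjusted p = 0.474) and EDNRB (adjusted p = 0.278) did not pass. EDNRB was chosen by its 48 h effect, which is part of this edgeR test too, so a constant effect is not read from it.

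The ratio of 2 members within a library does not depend on how libraries are scaled, so it was followed as a second view of the same counts. Its zero point has no meaning, since primer yield sets it, but its change between groups can be read. The log2 ratio of EDN2 to EDN1 was lowest at 0 h, from -1.97 to -0.86 with a median of -1.66. At 48 h its median was 0.94 in normoxia (-0.74 to 1.43) and 1.96 in hypoxia (0.98 to 2.68). At 12 h every library lay above the 0 h range, and the oxygen groups overlapped in this ratio at all 4 later harvests.

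Of the ratios between a ligand and the receptor, that of EDN2 to EDNRB separated the oxygen levels at every harvest and that of EDNRB to EDN1 at 12 h. The log2 ratio of EDN2 to EDNRB had a median of -2.001 in normoxia at 12 h (-2.61 to -1.78) and -0.84 in hypoxia (-1.28 to -0.05). At 24 h the medians were -1.75 (-2.60 to -1.37) and 0.41 (-0.49 to 1.01). At 36 h they were -1.72 (-2.07 to -0.77) and -0.26 (-0.52 to 0.63), and at 48 h -2.01 (-2.20 to -1.75) and 0.92 (-0.14 to 2.01). At each of the 4 harvests all 6 hypoxia libraries lay above all 6 normoxia libraries. How many other gene pairs separate in this way was not counted. EDN2 was chosen at 24 and 48 h and EDNRB at 48 h, and they moved in opposite directions there. A gap in their ratio at 24 and 48 h is therefore partly built in. The mean difference was 1.36, 2.20, 1.49 and 2.92 at 12, 24, 36 and 48 h. The mean log2 ratio of EDNRB to EDN1 was lower in hypoxia, with differences of -0.97, -1.39, -1.08 and -1.798, and its oxygen groups overlapped at 24, 36 and 48 h. Neither ratio was tested, since members of both were chosen for their oxygen effect.

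**Figure D3:**
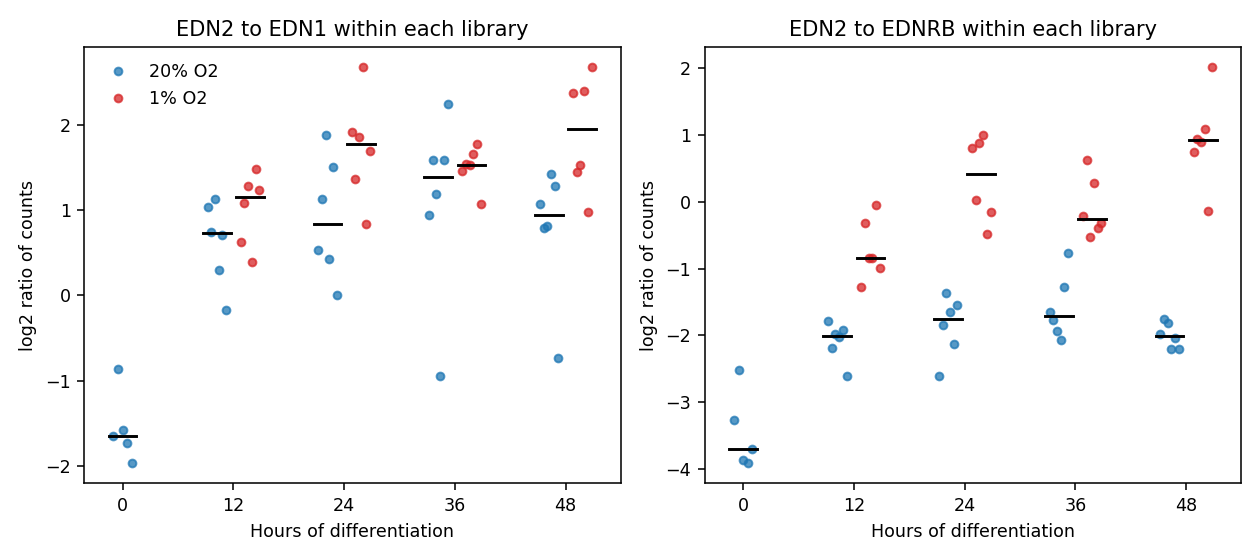
Log2 ratio of counts within each library for EDN2 to EDN1 (left) and EDN2 to EDNRB (right) against hours of differentiation. Points are libraries, blue at 20% O2 and red at 1% O2, and black lines are group medians. The left ratio moves up after 0 h at both oxygen levels, and in the right one the oxygen levels do not overlap at any harvest after 0 h.

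Library depth moved with the levels of the members inside the groups. Of the 53 libraries 13 had under 400000 counts, and the same number of shallow libraries stood in normoxia and hypoxia at every harvest (1 each at 12 and 36 h, 2 each at 24 and 48 h, and 1 at 0 h). Median totals still differed between oxygen levels. In normoxia they were 923721.5, 707180, 706741 and 787598 counts at 12, 24, 36 and 48 h. In hypoxia they were 809230, 729303, 651605 and 601750.5, and at 0 h the median was 1064169. EDN1 lay above its group mean in 12 of the 13 and in 12 of the other 40, EDN2 in 10 and 14, and EDNRB in 11 and 12. The median log2 deviation of shallow from other libraries was 1.10 for EDN1, 0.73 for EDN2 and 0.49 for EDNRB, against 0.0050 over all tested genes (5th to 95th percentile -0.34 to 0.59). Within groups the correlation with the log2 library total was -0.61 for EDN1, -0.35 for EDN2 and -0.46 for EDNRB. Over all tested genes its 5th to 95th percentile was -0.63 to 0.70. Over 68 genes with median counts near those of the members it was -0.58 to 0.33. Without the shallow libraries the log2 oxygen effect on EDN2 was 1.52 at 24 h and 1.32 at 48 h, and that on EDNRB was -1.24, -0.98, -1.06 and -1.42 at 12, 24, 36 and 48 h.

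**Figure D4:**
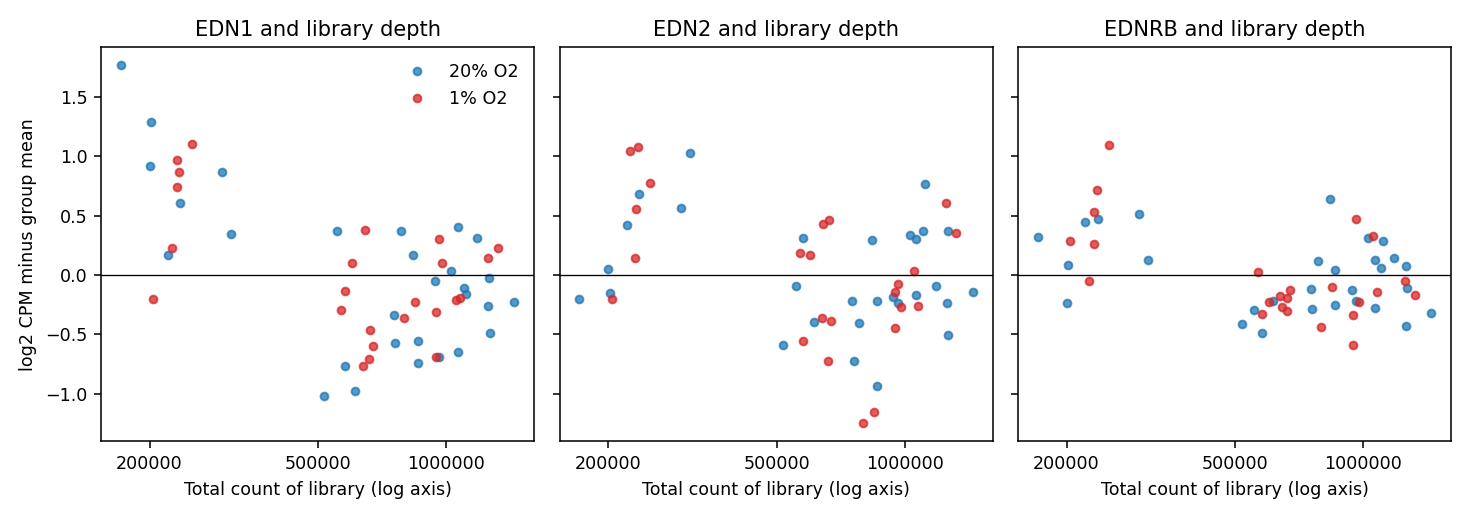
Deviation of log2 CPM from the group mean (y axis) against the total count of the library (x axis, log axis) for EDN1, EDN2 and EDNRB. Each point is 1 of 53 libraries, blue at 20% O2 and red at 1% O2. For EDN1, 12 of the 13 libraries under 400000 counts lie above 0.

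By another measure 17 libraries, 3 of them also under 400000 counts, stood apart in genes that rise and fall together, of which MC5R, SSTR2, HRH2, THRSP, FBP2 and IRS1 served as a score. Among them were 5 of 6 normoxia and 2 of 6 hypoxia libraries at 48 h, and 4 and 1 of 6 at 12 h. Without them 1 normoxia library at 48 h is left, a shallow one, and its spread is taken from the other groups in the fit. The log2 oxygen effects were then 1.61 for EDN2 at 24 h, -1.53 for EDNRB at 12 h and -0.95 at 36 h. At 48 h they were 1.595 for EDN2 and -1.49 for EDNRB, and the EDN1 change from 0 to 48 h in normoxia was -1.75. These last 3 values rest on that 1 normoxia library and are no support for the main ones.

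Genes most like each member were taken by Pearson correlation of log2 CPM over the 53 libraries, as a description. This holds scatter inside the groups as well as the course over them. For EDN1 they were PGR, the progesterone receptor (r = 0.86), the unnamed ENSGALG00000005257 (0.84) and VWF, the von Willebrand factor of endothelial cells (0.84). For EDN2 they were SIRT3, a mitochondrial deacetylase (0.86), HK2, a hexokinase (0.80), and PPARD, a nuclear receptor (0.78). For these 3 genes r was 0.76, 0.79 and 0.85 within groups and 0.93, 0.84 and 0.73 over the 9 group means. For EDNRB they were GDF8, the name the table gives to myostatin (0.94), TLL1, a tolloid-like metalloprotease (0.89), and ELOVL1, a fatty acid elongase (0.89). The points share libraries, depth and scaling. Of the members, EDN1 and EDNRB had r = 0.72, EDN1 and EDN2 0.38 and EDN2 and EDNRB -0.02, whereas deviations within groups gave 0.62, 0.49 and 0.56.

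Endothelin-1 is a product of endothelial cells in mammals, so the endothelial markers on the panel are set beside EDN1. VWF went from 743 ± 168 CPM at 0 h to 60.7 ± 23.7 in normoxia at 48 h (log2 -3.64, SE 0.32). In hypoxia it went to 130.0 ± 41.6 CPM (log2 -2.53, SE 0.30). In normoxia VWF fell more than EDN1, which was chosen by that change, so VWF is given without a p-value. In normoxia the adhesion molecule CDH5 and the TGF-beta coreceptor ENG fell as well (log2 -1.32 and -1.86). These are 3 of 3 tested markers, where 40.6% of all genes passed in either direction. The marker list was written with earlier results of these data known, so its calls are no independent support. In hypoxia 2 of 3 fell, with ENG at -0.59, where 44.2% of all genes passed. Between oxygen levels VWF was higher in hypoxia at 24 h (log2 0.98, SE 0.29) and 48 h (1.11, SE 0.30) and ENG at 48 h (1.27, SE 0.40). The third tested marker, CDH5, passed at no harvest (log2 0.27, 0.38, -0.24 and -0.04 at 12, 24, 36 and 48 h). At 12 and 36 h 0 of 3 passed. Of all genes 17.9%, 18.5%, 16.3% and 22.3% passed at 12, 24, 36 and 48 h. The fourth marker, PECAM1, had 4 to 13 counts per group and was not tested. Summed over the 4 markers the level was 682 to 1464 CPM at 0 h, 94.8 to 266 in normoxia at 48 h and 207 to 585 in hypoxia at 48 h. The part of endothelial cells in the EDN1 and EDN2 levels was not tested.

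Of the other cell types, 8 muscle, 8 fibroblast or fat and 5 smooth muscle or pericyte markers were on the panel. Their summed levels, again without TMM factors, ran over single libraries from 21568 to 36120, from 25397 to 36111 and from 10438 to 15187 CPM. The single blood cell marker on the panel lay between 0 and 20.2 CPM, also without TMM factors. Melanocytes and Schwann cells, which descend from the neural crest and are known for EDNRB in vertebrate embryos, have no marker analysed here. A sum follows its most abundant genes, so single markers are given too (edgeR, adjusted p under 0.05). Of the 8 muscle markers, ITGA7 fell in hypoxia at 12 h (log2 -0.88), MYF6 (2.02) and PAX3 (1.12) rose at 24 h, and PAX3, a factor of muscle precursors, rose at 36 h (0.86) and 48 h (0.92). Of the 5 smooth muscle or pericyte markers, MYLK, a myosin kinase, fell at 12, 24 and 36 h (-1.67, -1.32 and -0.90). TAGLN fell at 36 and 48 h (-0.42 and -0.40), and ACTA2 rose at 36 h (0.22). Of the 8 fibroblast or fat markers, the matrix gene DPT fell at all 4 harvests (-0.60, -0.99, -1.15 and -1.03) and FAP at 36 and 48 h (-0.58 and -0.49). The other fibroblast or fat markers did not pass between oxygen levels. The median of that list was 0.07, -0.04, -0.05 and -0.10 at 12, 24, 36 and 48 h. From 0 to 48 h in normoxia 40.6% of all genes passed. Of the muscle markers 1 rose (ITGA7, 2.32) and 2 fell (PAX3, -1.84, and MYF5, -0.85). Of the smooth muscle or pericyte markers 2 rose (CNN1, 2.16, and MYLK, 2.52) and 0 fell. Of the fibroblast or fat markers 3 rose, DPT by 2.92, and 1 fell. In hypoxia 44.2% passed. There 1 muscle, 3 smooth muscle or pericyte and 4 fibroblast or fat markers rose, and 1 of each list fell. The part of these cells in the member levels was not tested.

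Of other genes that regulate vessel tone or relay endothelin signals, 7 were followed and 6 of them had enough counts. At 12 h 0 rose and 2 fell in hypoxia, namely AGTR2, the type 2 angiotensin receptor (log2 -1.78, SE 0.45), and NPY, the vasoconstrictor neuropeptide Y (-1.43, SE 0.20). The median of the 6 was -0.51, against 0.042 for all tested genes. At 24 h ACE, which makes angiotensin II, rose (0.79, SE 0.29) and NPY (-0.80, SE 0.19) fell, with medians of 0.016 for the list and 0.0055 for all genes. At 36 h the edgeR adjusted p of the 6 ran from 0.1 for RGS4 to 0.961 for RGS2 (medians 0.26 and 0.0022). At 48 h RGS4, which shortens Gq and Gi signals of receptors such as EDNRB, was the one that passed (1.36, SE 0.30; medians 0.06 and 0.0083). From 0 to 48 h RGS4 rose by 1.70 (SE 0.33) in normoxia and 3.06 (SE 0.35) in hypoxia, and NPY fell by 1.57 (SE 0.20) and by 1.24 (SE 0.20), all at an edgeR adjusted p under the threshold. The list medians were 0.35 and 0.05, against 0.0052 and 0.0094. AGT, the precursor of angiotensin, ranged from 17.9 to 1418 CPM over single libraries and passed in none of these 6 comparisons. RGS2 passed in none of these comparisons. Of all genes 17.9%, 18.5%, 16.3% and 22.3% passed at 12, 24, 36 and 48 h. From 0 to 48 h 40.6% passed in normoxia and 44.2% in hypoxia.

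Among known regulators and early targets of endothelin in mammals, 12 of 13 genes on the panel were tested. At 12 h the early growth response factor EGR1 (log2 0.35, SE 0.07) and the cytokine IL6 (0.59, SE 0.14) rose and the muscle transcription factors MEF2A (-0.75, SE 0.27) and MEF2C (-0.76, SE 0.27) fell. At 24 h IL6 (1.61, SE 0.15) and the angiogenic factor VEGFA (0.15, SE 0.05) rose and 0 fell. At 36 h 0 rose and 3 fell, EGR1 (-0.57, SE 0.07), IL6 (-0.66, SE 0.15) and the hypoxia-inducible factor subunit HIF1A (-0.20, SE 0.07), and at 48 h EGR1 fell (-0.32, SE 0.07). From 0 to 48 h TGFB1, an inducer of EDN1 in mammalian endothelium, fell in normoxia (-1.77, SE 0.35) and hypoxia (-1.33, SE 0.35), and MEF2C rose (1.08, SE 0.29, and 0.74, SE 0.28). In hypoxia EGR1 (-0.48, SE 0.07) and HIF1A (-0.26, SE 0.07) fell too. Against the share of all genes that passed, 4 of 12 at 12 h stand beside 17.9%, 2 of 12 at 24 h beside 18.5%, 3 of 12 at 36 h beside 16.3% and 1 of 12 at 48 h beside 22.3%. The 2 of 12 from 0 to 48 h in normoxia and 4 of 12 in hypoxia stand beside 40.6% and 44.2%. The median log2 change of the 12 lay between -0.04 and 0.08 in the 6 comparisons, and that of all genes between 0.0022 and 0.042.

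**Figure D5:**
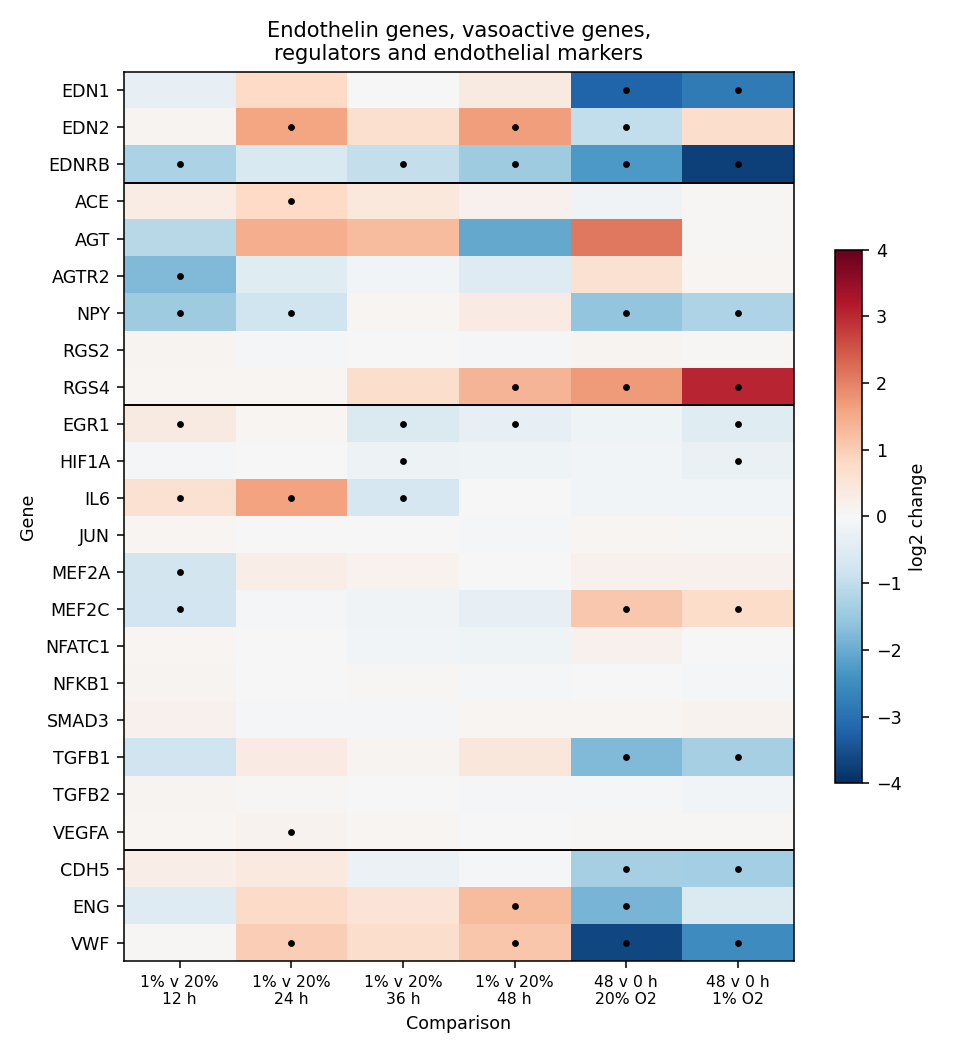
Log2 change (colour) of the members, the tested vasoactive genes, the tested regulators and early targets and the tested endothelial markers, separated by lines, in 6 comparisons (x axis). A dot marks an adjusted p under 0.05 in the edgeR fit over 453 genes. For the members, dots at 24 and 48 h and from 0 to 48 h fall in comparisons by which members were chosen. Those dots are no independent support. EDN1, EDNRB and VWF are all blue from 0 to 48 h. Between oxygen levels at 24 and 48 h, EDN2 and VWF are red and EDNRB is blue.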

How the data were processed

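Targeted RNA-seq of 53 biological libraries in 2 technical replicates (106 columns) was deposited as 1 table of read counts of 590 transcripts. Per the labels' protocols, RNA was reverse transcribed and amplified with primers that span exon boundaries. Coordinates are on galGal6, as the submitters' processing notes name it. An aligner and a counter are not given in those sources. Blank cells (1160 in 21 columns) were read as 0, and none fell on the members. Transcripts and technical replicates were summed per gene and library. All 3 member names matched RefSeq symbols. Molecular identifiers are named nowhere in the labels, and PCR reads cannot count as independent molecules.

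Sample groups come from the labels' oxygen level and harvest time. Counts were scaled by TMM and tested in R 4.3.3 with edgeR 4.0.16 (filterByExpr, quasi-likelihood F test, 9 groups in 1 fit, Benjamini-Hochberg over 453 genes, threshold 0.05; 116 genes had too few counts). The SE was derived as the log2 change over the root of the F statistic, and 95% intervals are unadjusted. The biological coefficient of variation was 38.8% for EDN1, 38.3% for EDN2 and 26.4% for EDNRB. The procedure was tested on simulated data. A ratio of counts has 0.5 added to each. Alternatives were DESeq2 1.42.0, other scalings, filters, blocks and left-out libraries.

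The members and gene lists were chosen with earlier results of these data known. Members are given without a p in comparisons where 1 of them was among the 10 highest or lowest called changes with oxygen, the 6 highest or lowest from 0 to 48 h, or the 6 smallest p of the difference between times. Other named genes are list members that passed and the 3 most correlated genes. One gene of the vasoactive list is not reported here. AGT, RGS2, ENG in hypoxia and the single markers of other cells were named after their values were seen.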

Additional observations from a re-analysis of the deposited data

Results flagged for a closer look

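In hypoxia at 24 h, EDN1 in replicate 2 (100.2 CPM, 26 counts) lay far above the next library at 53.4 CPM. In normoxia at 36 h, EDN1 in replicate 4 (83.4 CPM, 14 counts) lay far above the next at 25.8 CPM. In hypoxia at 48 h, EDNRB in replicate 2 (84.9 CPM, 20 counts) lay above the next at 59.1 CPM. All 3 libraries had under 400000 counts. The 27 sets of libraries (3 members in 9 groups) were examined for a sample far from the others by Dixon's ratio, which marks about 1 in 20 sets by chance.

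The edgeR test of the difference between harvests gave EDN2 an adjusted p of 0.0416. It rests on the 24 and 48 h effects by which EDN2 was chosen, so it is no independent evidence, and it missed the threshold in 13 of 19 alternatives, among them 5 of 6 with 1 replicate left out. Its log2 values were 0.10, 1.58, 0.63 and 1.67 at 12, 24, 36 and 48 h, and EDN2 was higher than the normoxia mean in 3, 6, 4 and 6 of 6 hypoxia libraries.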

How the results depend on the processing

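Over 21 results (3 members in 7 comparisons) and 19 alternatives, 358 of 399 values kept direction and threshold side (difference between harvests: side alone). As members were chosen by 4 of the 7, this is no independent support. Of the alternatives 4 were chosen after seeing the data. They left out the 17 libraries, those under 400000 counts or normoxia 0 h replicate 1, or scaled by 6 reference genes. Changes are log2 values, and causes of shifts were not tested.

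EDN2 at 12 h, which never passed, was -0.26 in technical replicate 2 alone, -0.079 without the 17 libraries, -0.012 by reference genes and -0.13 to 0.21 with 1 replicate left out. EDN1 at 36 h, which never passed either, was -0.40 in technical replicate 1 alone, -0.33 without columns that hold blanks and -0.25 to 0.28 with 1 replicate left out. EDNRB at 24 h was -0.63 by DESeq2, -0.98 without libraries under 400000 counts and -0.81 to -0.49 with 1 replicate left out. EDNRB at 36 h missed the threshold in technical replicate 2 alone (-0.95) and with the compared groups alone in the fit (-0.95), and was -1.06 to -0.72 with 1 replicate left out. Without the 17 libraries normoxia at 48 h is 1 library, assumed to vary like the other groups. EDN1 at 48 h was then -0.88, EDN2 1.595, EDNRB -1.49 and EDN1 from 0 to 48 h in normoxia -1.75. These are effect sizes that rest on 1 library, so values near the main ones are no support for them.

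EDN2 from 0 to 48 h in normoxia missed the threshold in technical replicate 1 alone (-0.70), without columns that hold blanks (-0.93), the 17 libraries (-1.04), normoxia 0 h replicate 1 (-0.91) or libraries under 400000 counts (-0.79) and by reference genes (-1.001), and was -1.05 to -0.80 with 1 replicate left out. The EDN2 difference between harvests (48 h less 12 h effect) missed it by library totals (1.59), with no filter (1.56), in technical replicate 1 (1.315) or 2 (1.74) alone, without columns that hold blanks (1.755), the 17 libraries (1.67) or libraries under 400000 counts (1.15) and by reference genes (1.70). With 1 replicate left out it was 1.275 to 1.87 and passed in 1 of 6 cases, without replicate 5.

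By 9 group means, 1 of the 3 genes most like EDN2 and 1 of those most like EDNRB stayed in the top 3. The replicate numbers share no source in the labels. Libraries under 400000 counts bore the same numbers at both oxygen levels, replicate 4 at 12 and 36 h and replicates 2 and 6 at 24 and 48 h. Deviations of 34 same-numbered pairs correlated from -0.32 to 0.78, above 0.1 in 20, and in 12 most with their own number. With a replicate block no member changed its call, and EDN1 at 36 h was -0.014.

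Counts of genes that passed moved by over 1.5 times as follows. Technical replicate 1 alone gave 47 for 81 at 12 h, 55 for 84 at 24 h and 30 for 48 in the difference between harvests. Technical replicate 2 alone gave 49 at 24 h, 39 for 74 at 36 h and 25 in the difference. The compared groups alone gave 131, 42 and 33 at 12, 24 and 36 h. Without the 17 libraries there were 24 at 12 h, 22 for 101 at 48 h, 68 for 184 from 0 to 48 h in normoxia and 13 in the difference. Without replicate 2, 3 or 6 there were 44 to 48 at 12 h, and without replicate 3 there were 31 in the difference. Without libraries under 400000 counts there were 116 at 36 h. Reference genes gave 44 at 12 h and 21 in the difference. At 12 h 34 were higher and 47 lower, against 26 and 63 by DESeq2, 23 and 57 by its size factors and 11 and 33 by reference genes, which moved the median of all genes from 0.042 to -0.066.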
